A study of Homo sapiens with 3 samples.

Results

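Calprotectin-high cells of mdR-H460 are the cells of that culture with at least 1000 unique molecular identifiers (UMIs, each counting 1 captured transcript) in total and at least 3 UMIs of S100A8. The rule found 321 such cells among 4566 cells of mdR-H460 that reached 1000 UMIs, a share of 7.03% (exact Clopper-Pearson 95% interval 6.31 to 7.81), and among 14638 cells in the whole series. They were compared with the 3668 cells of the same culture that reached 1000 UMIs and had 0 S100A8 UMIs. A further 577 cells had 1 or 2 S100A8 UMIs and entered neither set. Because S100A8 counts chose the cells, all ratios within mdR-H460 below are descriptions, and S100A8 itself is left out of the counts of genes past a fold.

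The parental culture, H460, is a widely used cell line that came from a large-cell carcinoma of the lung. The labels describe mdR-H460 and ldR-H460 as mid-term and long-term dR-H460 lines with H460 as their parent, and the growth protocol describes reprogrammed cancer cells grown on gamma-irradiated human fibroblasts as feeder cells. The labels do not state how long the mid-term and long-term cultures had grown. Each culture was profiled once, as 1 library of droplet-based 3′ single-cell RNA sequencing, so there is no replicate check and no test between cultures; cells are not replicates, and every interval covers counting error only. The libraries held 4531 (H460), 5151 (mdR-H460) and 4956 (ldR-H460) cells with 60468481 to 66624830 UMIs. Of the cell barcodes, mdR-H460 shared 30 with H460 and 24 with ldR-H460, and no barcode was calprotectin-high in more than 1 library.

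Calprotectin is the complex of S100A8 and S100A9, small calcium-binding proteins of the S100 family whose genes lie near each other on chromosome 1. It is abundant in neutrophils and monocytes, is made by epithelial cells under stress or inflammation, binds zinc and manganese and so starves microbes of them, and acts outside the cell as a ligand of TLR4 and of RAGE, the product of AGER. PI3 encodes elafin and SLPI a related inhibitor, both secreted inhibitors of neutrophil elastase made by epithelia, and IL1B encodes the cytokine interleukin-1 beta.

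The promoters of the calprotectin pair and of IL1B are shown because these genes marked the cells and because such sequences hold the elements through which myeloid and epithelial factors act. Each is the 250 bases before the gene's start, 5′ to 3′ on the gene's strand, from RefSeq on GRCh38.p14, at chr1:153391074-153391323 (minus strand, S100A8), chr1:153357604-153357853 (plus strand, S100A9) and chr2:112836780-112837029 (minus strand, IL1B). The table gives 3 starts for S100A8, and the window shown is the one chosen for having TATAAA shortly before its start; S100A9 and IL1B have 1 start each. Capitals mark the letters TATAAA on the gene's strand and the C/EBP letters TTNNGNAA on either strand.
S100A8: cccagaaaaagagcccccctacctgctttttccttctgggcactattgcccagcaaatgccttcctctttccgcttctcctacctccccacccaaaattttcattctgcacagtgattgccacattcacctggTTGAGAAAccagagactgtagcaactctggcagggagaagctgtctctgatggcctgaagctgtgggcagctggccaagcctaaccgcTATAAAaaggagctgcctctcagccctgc
S100A9: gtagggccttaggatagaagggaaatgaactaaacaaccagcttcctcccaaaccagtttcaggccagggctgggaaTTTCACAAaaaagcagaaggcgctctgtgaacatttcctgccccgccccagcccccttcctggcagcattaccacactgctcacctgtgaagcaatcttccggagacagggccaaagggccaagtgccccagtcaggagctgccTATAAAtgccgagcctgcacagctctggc
IL1B: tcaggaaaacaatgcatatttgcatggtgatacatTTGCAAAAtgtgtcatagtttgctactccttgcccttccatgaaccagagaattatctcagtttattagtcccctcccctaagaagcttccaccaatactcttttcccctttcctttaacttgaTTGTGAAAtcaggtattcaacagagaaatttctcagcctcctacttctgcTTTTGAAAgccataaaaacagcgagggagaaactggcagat
Both calprotectin windows shown held TATAAA 29 bases before the start, which for S100A8 follows from that choice, and 1 C/EBP match, 117 bases before the start in S100A8 and 173 bases before it in S100A9. The IL1B window held no TATAAA and 3 C/EBP matches. Of all 35116 windows in the table, searched over the 250 bases before the start, 10.7% held TATAAA and 33.2% held TTNNGNAA, each searched on both strands. Of the 22 genes at least 2-fold higher in calprotectin-high cells, which leave out S100A8, 17 matched the table, and 23.5% of those 17 held TATAAA and 52.9% the C/EBP letters in at least 1 window. The AP-1 letters TGANTCA were in 29.4% of the 17 against 6.57% of all windows, the STAT letters TTCNNNGAA in 29.4% against 6.57%, and the NF-kB letters, GGG and then CC after any 5 bases, in 70.6% against 54.4%. A gene with several starts had several windows (23 for the 17 genes), which raises the chance of a match, and the 11 matched genes of 15 at least 2-fold lower held the C/EBP letters in 72.7% of cases. The matches describe letters and not binding. No entry matched PI3.

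The S100A8 count of a calprotectin-high cell ran from the threshold of 3 through a median of 7 and an upper quartile of 16 to 242 UMIs. The distribution was skewed: the 33 cells with the most S100A8 held 47.9% of the UMIs of the gene in these cells. Together the 321 cells held 87.6% of all S100A8 UMIs of mdR-H460 cells over 1000 UMIs, but 45.2% of the S100A9 UMIs. The cells were deeper than their comparison cells, with a median of 17326 against 12650.5 UMIs and 3072 against 2635.5 detected genes, so part of their number depends on depth. After every cell was thinned to 5000 UMIs, 146 of 3880 cells passed the rule, 3.76% (3.19 to 4.41), with 686 shallower cells left out, 30 of them calprotectin-high on full counts. The share of mitochondrially encoded UMIs was 5.36% in the calprotectin-high cells and 5.23% in the others.

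The same rule in the other cultures found 179 of 4167 H460 cells, 4.3% (3.7 to 4.96), and 1 of 4738 ldR-H460 cells. After thinning, the H460 share was 2.99% (2.47 to 3.57), so the intervals of H460 and mdR-H460 overlapped there and did not on full counts. In ldR-H460, 5 cells (0.106%) had any S100A8 UMI, against 19.7% in mdR-H460, at median depths of 12590 and 12650.5 UMIs in their S100A8-zero cells. Of the 585 mdR-H460 cells under 1000 UMIs 2 had at least 3 S100A8 UMIs. The part of free RNA in cells with 1 or 2 S100A8 UMIs was not tested. The single ldR-H460 cell carried 12 S100A8, 47 S100A9, 29 PI3 and 10 SLPI UMIs among 13568, while the S100A8-zero cells of ldR-H460 had 1.03 CPM of S100A9 and 6.19 CPM of PI3. CPM, the unit of level used here, scales the summed UMIs of a gene to the total of its cell set.

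S100A9, the partner of S100A8 (chromosome 1, 153357854 to 153361027, plus strand), was present in 319 of the 321 calprotectin-high cells. Its count per cell ran from 0 through a median of 32 to 407 UMIs, against a median of 1 and a highest value of 122 in the S100A8-zero cells. Its level was 2705 CPM against 225, 12-fold (11.7 to 12.3) higher. The sets overlapped, since 339 of the S100A8-zero cells (9.24%) had 10 or more S100A9 UMIs and 1760 had none. Per S100A8 UMI, the calprotectin-high cells had 3.1 UMIs of S100A9 and the H460 cells of the same rule 2.39. This ratio depends on the S100A8 count that chose the cells. It was 10.1 in mdR-H460 cells with 1 or 2 S100A8 UMIs, and the median S100A8 count was 7 in the calprotectin-high cells and 17 in those of H460.

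PI3 (chromosome 20, 45174876 to 45176544) followed, at 237 CPM against 68.9, 3.45-fold (3.23 to 3.67) higher. After thinning to 5000 UMIs it was seen in 52.6% of the calprotectin-high and 21.0% of the S100A8-zero cells. SLPI, whose gene lies close by on chromosome 20 (45252239 to 45254564), was 1.73-fold (1.66 to 1.81) higher at 436 CPM and was seen in most cells of both sets, 81.1% and 62.5% after thinning. IL1B (chromosome 2, 112829751 to 112836903) was 3.76-fold (3.09 to 4.55) higher at 26.8 against 7.15 CPM, but only 30 of the 321 cells (9.35%) had any IL1B UMI. A single cell with 150 S100A8 UMIs held 68 of the 151 IL1B UMIs, and without the cell with the most IL1B UMIs in each set the ratio was 2.39. The markers were therefore unevenly shared: S100A9 was seen in nearly every calprotectin-high cell, PI3 in most (72.3%) and IL1B in few.

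A gene was measured if the higher of the sets had 10 CPM, and of 5866 such genes few lay far from a ratio of 1. In the upward direction 22 genes passed 2-fold (0.375% of those measured) and in the downward direction 15 (0.256%). At 1.5-fold the counts were 72 (1.23%) and 63 (1.07%), and 97.7% of genes lay within 1.5-fold, with a median log2 ratio of -0.04. A gene that reached 10 CPM in only 1 of the sets was measured through the set where it was higher, so its direction was fixed. With a single library, passing means past the stated fold, with no p-value. In cells thinned to 5000 UMIs, 15 of the 22 and 11 of the 15 stayed past 2-fold. With equal weight per cell the counts were 25 upward and 29 downward, and with the S100A8-zero cells weighted to the depth of the calprotectin-high cells 31 and 8.

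The 22 genes included CHI3L2, LCN2, PTGS2 and IL11. CHI3L2, a chitinase-like secreted protein, was 5.22-fold (4.01 to 6.76) higher at 16.9 CPM, and 20.2% of calprotectin-high cells had a UMI of it against 3.6% of the others. LCN2, the iron-scavenging lipocalin also stored in neutrophil granules, was 2.98-fold (2.29 to 3.84) higher at 14.6 CPM. PTGS2, the inducible cyclooxygenase of prostaglandin synthesis, was 2.85-fold (2.43 to 3.33) higher at 37.3 CPM. IL11, a cytokine of the interleukin-6 family, was 2.84-fold (2.47 to 3.25) higher at 50.0 CPM, with UMIs in 18.1% of cells against 7.47%. These genes were still carried by a minority of the calprotectin-high cells, which differs from the near-complete presence of S100A9.

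The other genes past 2-fold had varied roles. SPINK6, an inhibitor of kallikrein proteases, was 2.15-fold (1.97 to 2.34) higher at 119 CPM, and SERPINB2, the plasminogen activator inhibitor PAI-2, 2.06-fold (1.79 to 2.37) higher at 44.8 CPM. NOX5, a calcium-regulated NADPH oxidase, was 2.39-fold (1.97 to 2.87) higher. SQRDL, the mitochondrial sulfide oxidase, was 2.07-fold (1.89 to 2.27) higher and was the broadest of these after S100A9, with UMIs in 73.2% of the calprotectin-high and 41.9% of the S100A8-zero cells. The surface glycoprotein gene CD24 was 2.02-fold (1.61 to 2.53) higher, though its reads can be split with near-identical copies, and its log2 ratio of 1.02 was 0.03 when cells were chosen on a random part of their UMIs and measured on the rest. RAB31, TCIRG1, CCDC71L, UBE2L6, CYP24A1, HEY1 and NDUFA4L2 lay between 2.04-fold and 2.34-fold.

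The ratios of MSMP, 13-fold, and NTS, the neurotensin precursor, 13.2-fold, rested on few cells. One calprotectin-high cell held 117 of the 128 MSMP UMIs, and without the cell with the most MSMP UMIs in each set the ratio was 1.94 (0.913 to 3.77). The ratio also turned, to a log2 value of -1.60, among cells called G1. For NTS, 3 cells held 90.4% of the 104 UMIs, and 9 of the 321 cells had any. The values of MSMP and NTS thus describe a few cells.

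Among the genes lower in calprotectin-high cells was KRT19, the keratin of simple epithelia (chromosome 17, 41523617 to 41528308, minus strand). It stood at 84.6 CPM against 216 in the S100A8-zero cells, 2.56-fold (2.33 to 2.81) lower, and after thinning was seen in 23.0% against 45.2% of cells. The keratins KRT8 and KRT18, which pair in simple epithelium, were at 612 against 635 CPM and at 1662 against 1773 CPM, and KRT7 was higher, at 250 against 179 CPM. HOPX, a homeodomain-only transcriptional cofactor, was 2.4-fold (2.1 to 2.76) lower at 38.6 CPM, and GALC, the lysosomal galactosylceramidase, 2.33-fold (2.02 to 2.69) lower at 35.7 CPM. INSL4, a placental insulin-like peptide, was lower by 2.59-fold (1.95 to 3.51) and CDH13, a cadherin without a cytoplasmic tail, by 2.54-fold (1.74 to 3.85), both under 10 CPM in the calprotectin-high cells. C3orf49, TXNIP, SCGB3A2, SESN2, AJUBA, ASRGL1, PPIL4, ANXA3 and MGLL were also among the 15, 2.01-fold to 2.72-fold lower. When the S100A8-zero cells were weighted to the depth of the calprotectin-high cells, 8 of the 15 stayed at least 2-fold lower, among them KRT19, HOPX, GALC and INSL4, while 20 of the 22 higher genes stayed higher. The other 7 were still lower under that weighting, with log2 ratios from -0.98 (TXNIP) to -0.78 (MGLL). The part of depth in these ratios was not tested further.

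**Figure D1:**
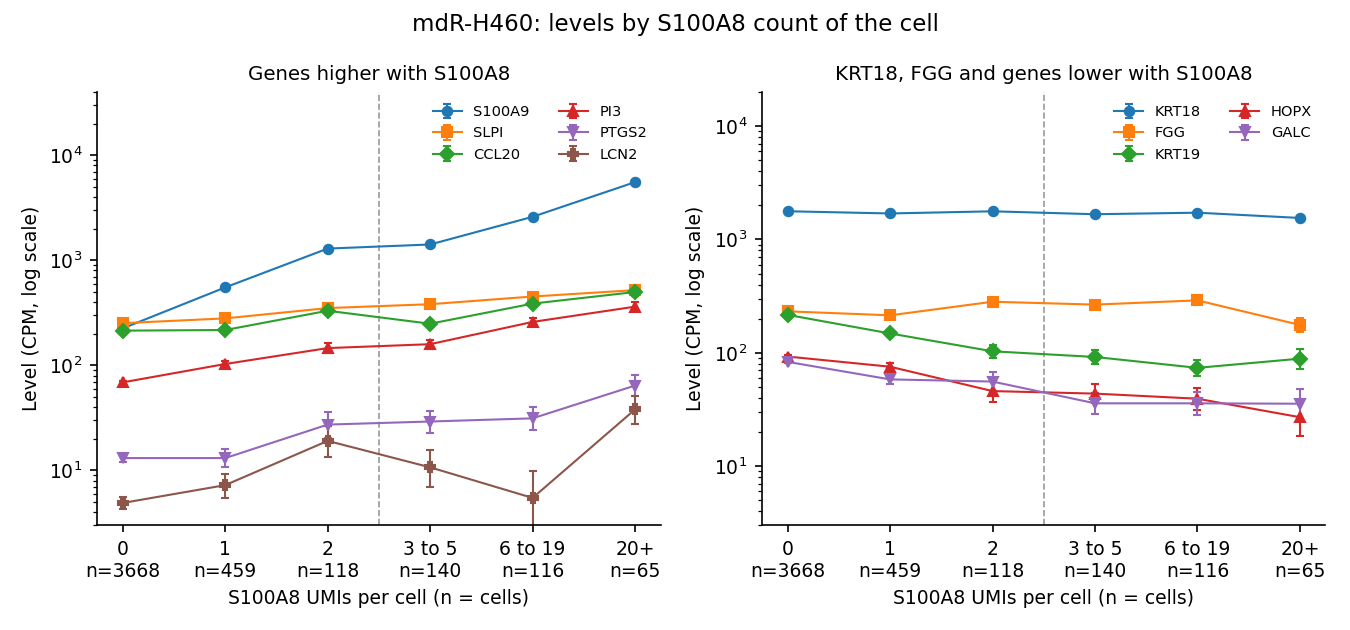
Levels of 11 genes in mdR-H460 cells grouped by their S100A8 UMIs (horizontal axis, with the number of cells); the vertical axis is CPM on a log scale, bars are exact Poisson 95% intervals and the dashed line marks the threshold of 3 UMIs. S100A9 climbs from 225 to 5547 CPM and PI3 from 68.9 to 362, KRT19 descends from 216 to 88.7, and KRT18 stays between 1547 and 1773.

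How the cells varied with their S100A8 count is shown in the plot of levels by S100A8 class. S100A9 had 225, 552, 1293, 1414, 2593 and 5547 CPM in cells with 0, 1, 2, 3 to 5, 6 to 19 and 20 or more S100A8 UMIs. PI3 had 68.9, 103, 146, 159, 259 and 362 CPM in the same order, and KRT19 216, 148, 103, 91.8, 73.6 and 88.7. All 3 genes thus lay apart from the S100A8-zero cells, beyond counting error, already in cells with 1 or 2 S100A8 UMIs. At the threshold itself, the 118 cells with 2 and the 73 cells with exactly 3 S100A8 UMIs had 1293 and 1284 CPM of S100A9, 146 and 145 of PI3, and 103 and 94.3 of KRT19. IL1B had 101 CPM in the 65 cells with 20 or more S100A8 UMIs and 3.86 to 9.95 CPM in the cells with exactly 3, 3 to 5 and 6 to 19. In the highest class 1 cell held 68 of the 119 IL1B UMIs, and 18.5% of the cells had any. LCN2 had no steady order, with 19.1 CPM at 2, 5.47 at 6 to 19 and 38.0 at 20 or more. IL11 and NOX5 reached 89.6 and 51.5 CPM in the highest class.

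Within the 321 cells, the Spearman correlation between S100A8 and S100A9, each per total UMIs of the cell, was 0.61, a description over cells of 1 library that share their depth and total. For the 25 other genes examined it lay between -0.16 (HOPX) and 0.21 (SLPI), weak values that are no finding in sparse counts. Of 9 genes at least 2-fold higher (PI3, CHI3L2, PTGS2, S100A3, NOX5, IL11, LCN2, SPINK6 and SERPINB2), the median calprotectin-high cell had UMIs of 3 and the fullest of 8. None was seen in 24 of the 321 cells (7.48%), against 1189 of 3668 S100A8-zero cells (32.4%), at the unequal depths given above. The 9 genes were picked from those already past 2-fold in these same cells, so a difference in this direction followed from that choice.

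S100A9 was also informative among the cells without S100A8. The 339 S100A8-zero cells with 10 or more S100A9 UMIs had 124 CPM of PI3 and 121 CPM of KRT19, between the 1760 cells with no S100A9 UMI (45.4 and 297 CPM) and the calprotectin-high cells (237 and 84.6 CPM). LCN2 was at 13.8 CPM in those 339 cells and 14.6 in the calprotectin-high cells, against 2.07 where S100A9 was 0. PTGS2, IL11 and IL1B did not follow: they had 11.4, 14.4 and 8.68 CPM in the 339 cells, close to the 13.9, 16.2 and 7.14 CPM of cells without S100A9 UMIs. The median depth of these sets differed, at 20394 UMIs in the 339 cells and 8794.5 in the 1760.

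The gene lists were read beside the median over all genes of -0.04. Counts of members at least 1.5-fold higher were read beside the 1.23% of all 5866 measured genes that were. Of the S100 family, 9 members other than S100A8 were measured, 2 were at least 1.5-fold higher and none lower, with a list median log2 ratio of 0.27. S100A9 and S100A3 were those 2. S100A3 was 2.63-fold (2.21 to 3.11) higher at 31.8 CPM, and its annotated span (chromosome 1, 153547329 to 153549372) lies inside that of S100A4 on the same strand, so reads could be split between them. S100A4 and S100A6 were 1.38-fold (1.33 to 1.44) and 1.27-fold (1.25 to 1.29) higher, while S100A10, S100A11, S100A13 and S100P lay between 0.931 and 1.06 of the S100A8-zero level. Within 500 kb on either side of S100A8, 21 genes were listed, S100A8 among them, and 9 others were measured. Only S100A9 and S100A3 of these 9 were at least 1.5-fold higher and none was lower, and the adjoining CHTOP, SNAPIN and ILF2 had ratios of 1.02, 0.908 and 0.902. S100A12, the third S100 gene of granulocytes, was under the minimum level, at 3.02 against 0.336 CPM.

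Receptors and partners of calprotectin differed little. Of 4 measured members none passed 1.5-fold: CYBA, a subunit of the phagocyte-type NADPH oxidase, was 1.18-fold (1.15 to 1.22) higher, BSG, the surface protein basigin, 1.08-fold (1.03 to 1.13), and MCAM 1.47-fold (1.18 to 1.82). The receptor genes TLR4 and AGER were nearly silent, with 2 and 0 UMIs in the calprotectin-high cells, against an allowance of 3 UMIs or 0.533 CPM for a count of 0.

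Of 12 measured antimicrobial proteins and protease inhibitors, 5 were at least 1.5-fold higher (PI3, LCN2, SPINK6, SERPINB2 and SLPI) and none lower, with a list median log2 ratio of 0.41. PI3 was also a marker of these cells, as was IL1B below. Of 7 chemokines 1 was higher, CCL20, a ligand of CCR6, at 351 against 214 CPM (1.64-fold, 1.56 to 1.72). The neutrophil-attracting chemokines CXCL1 and CXCL8 were abundant in both sets, at 1270 against 1138 and 745 against 758 CPM. Of 2 measured members of the IL-1 family, IL1B was higher and IL18 was at 27.2 against 26.9 CPM. Of 17 regulators and targets of NF-kB 2 were at least 1.5-fold higher, PTGS2 and BCL3, and none lower. BCL3, LCN2 and IL1B were under 10 CPM in the S100A8-zero cells. They counted as measured only through the calprotectin-high cells and could not have been counted as lower. SOD2, a widely used readout of that pathway, was at 1018 against 707 CPM, 1.44-fold (1.4 to 1.48). Most chemokine and NF-kB genes thus lay within 1.5-fold, and 7 of the 12 defence genes did.

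Acute phase genes lay mostly within 1.5-fold in mdR-H460, where C1S alone of 8 was at least 1.5-fold higher. The fibrinogen chains FGA, FGB and FGG were at 56.4, 30.6 and 256 CPM in calprotectin-high cells and at 57.1, 34.0 and 232 CPM in the others. Of 8 measured squamous and cornified envelope genes TGM2 and KRT81 were higher, 1.9-fold (1.5 to 2.38) and 1.87-fold (1.64 to 2.12), and none lower. No steady squamous pattern was seen, since 22 of the 39 list members had no UMI or were not listed in the calprotectin-high cells and the list median log2 ratio was -0.07.

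Stress lists were read against the 1.07% of all measured genes that were at least 1.5-fold lower. Of 15 measured p53 targets 3 were at least 1.5-fold lower (SESN2, FDXR and PHLDA3) and none higher, with a median log2 ratio of -0.28. Of 18 genes of the integrated stress and unfolded protein response 2 were lower, SESN2, which is in both lists, and DDIT3, and none higher, with a median of -0.27. DDIT3, a transcription factor of the stress response, was 1.99-fold (1.74 to 2.27) lower at 42.1 CPM, and was seen in 22.4% of calprotectin-high and 21.0% of S100A8-zero cells, and after thinning in 8.59% (5.64 to 12.4) and 10.5% (9.44 to 11.6). Its level did not follow the S100A8 count: DDIT3 was at 19.8 CPM in cells with 3 to 5 S100A8 UMIs, 84.5 at 6 to 19 and 16.1 at 20 or more, against 83.7 in the S100A8-zero cells. Without the cell with the most DDIT3 UMIs in each set, its log2 ratio of -0.99 was -1.55. The DDIT3 levels thus leaned on single cells, whose S100A8 class was not examined. Of 12 heat shock genes HSPA1A was lower, 1.86-fold (1.55 to 2.25), a count that could be split with its near-identical copy, and its log2 ratio of -0.89 was -0.32, within 1.5-fold, without cells with at least 3 HSPA6 UMIs. Under the same rule in H460 the p53, stress response and heat shock lists had medians of 0.09, 0.16 and 0.04, and DDIT3 was 1.31-fold (1.12 to 1.53) higher. Of 37 S phase genes none passed 1.5-fold in either direction, and of 49 G2/M genes only ECT2 was lower. All 13 mitochondrially encoded genes, 10 cholesterol synthesis genes and 18 lysosome genes lay within 1.5-fold.

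**Figure D2:**
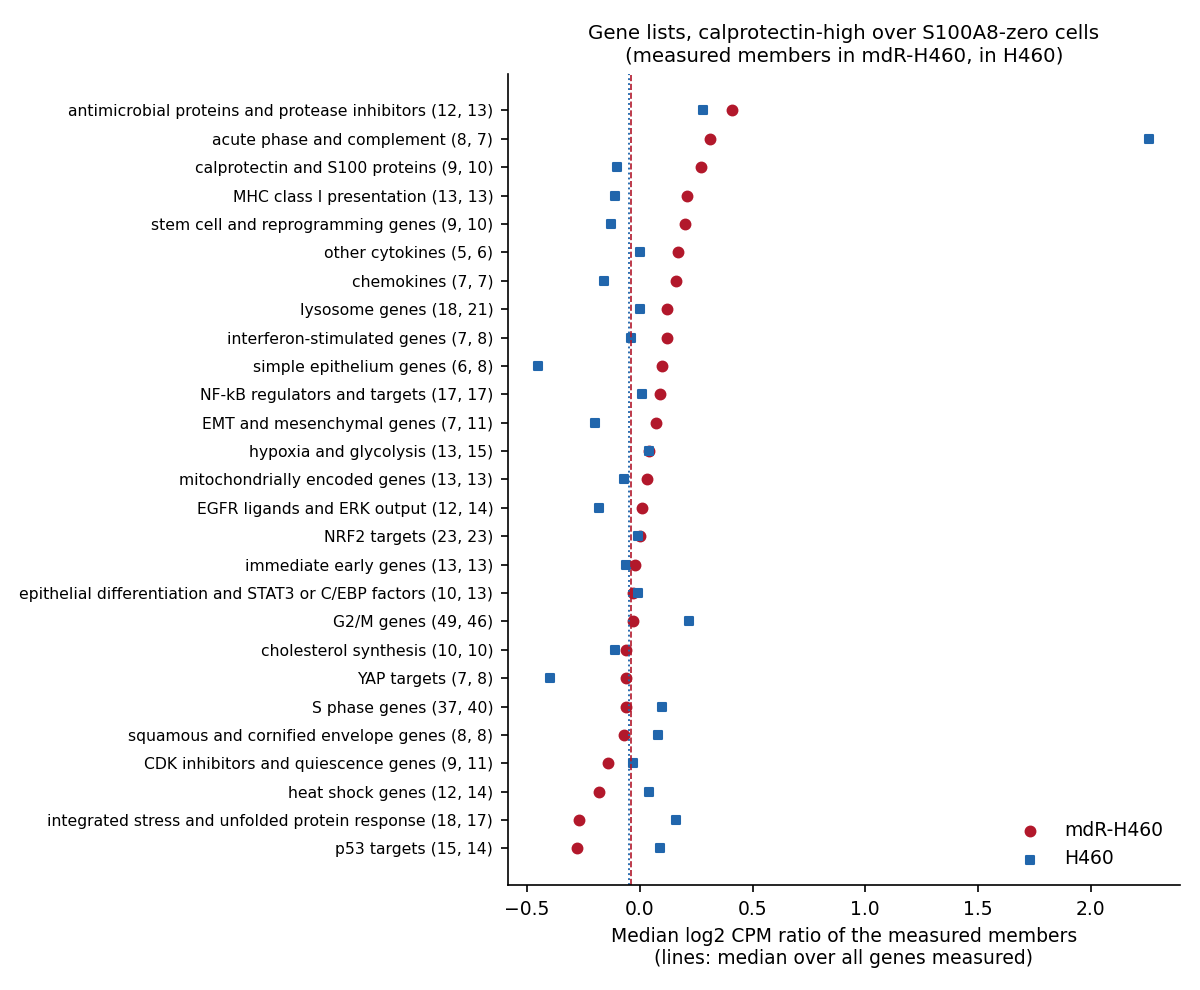
Median log2 CPM ratio, calprotectin-high over S100A8-zero cells, of each gene list with at least 5 measured members in mdR-H460 (circles) and under the same rule in H460 (squares); lines mark the median over all genes. In mdR-H460 the medians ran from -0.28 for p53 targets to 0.41 for antimicrobial proteins and protease inhibitors, and in H460 the acute phase and complement list stood at 2.26.

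The cells were spread over the culture. Clusters were made without S100A8 and S100A9, and every one of the 7 held calprotectin-high cells, from 5.19% of cluster 6 to 9.83% (7.31 to 12.9) of cluster 3. The interval of cluster 1, 4.65 to 7.01, lay below that of cluster 3, and those of all other clusters overlapped both. Cluster 3 was the deepest, with a median of 23349.5 UMIs. It was led by S100A2 (2.31-fold), and S100A9, though left out of the clustering, came next (2.14-fold). The S100A8 level was less even than these shares, which depend on depth. It ran from 34.8 CPM in cluster 6 to 294 CPM in cluster 7, whose median depth was 1892 UMIs. Clusters 1, 2 and 3 were at 46, 167 and 68.9 CPM. The phases called after thinning differed by less than their counting error: G1 37.5%, S 27.5% and G2/M 35.1% of 291 calprotectin-high cells, against 35.8%, 28.2% and 36.0% of 3067 S100A8-zero cells, with overlapping intervals for each phase. MKI67 was at 77.0 against 77.3 CPM.

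**Figure D3:**
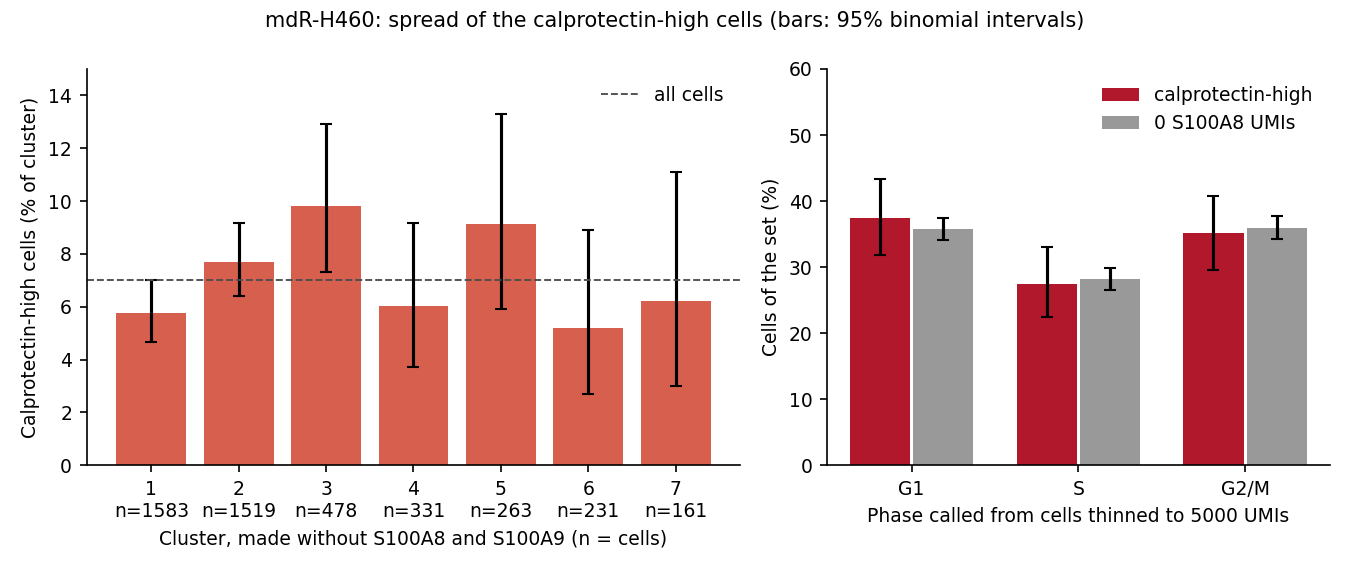
Left, the share of each mdR-H460 cluster that was calprotectin-high, with the dashed line at 7.03% for all cells; right, the share of each cell set called G1, S or G2/M. Bars are exact binomial 95% intervals; shares ran from 5.19% to 9.83% over clusters, and G1 was 37.5% against 35.8%.

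Markers of other cell types were checked because calprotectin is best known from myeloid cells. Of 20 neutrophil and monocyte markers only 9 were listed for mdR-H460. In the calprotectin-high cells 15 of the 20 had no UMI or were not listed, among them SPI1, and PTPRC, CSF3R and TYROBP, which were not listed. An unlisted symbol was taken as 0 and has no count of its own. The list sum was 38.2 against 28.3 CPM, of which CD68, a lysosomal protein also made by epithelial cells, gave 31.6 against 25.6, S100A12 3.02 against 0.336 and CD14 2.31 against 1.52. Of 14 fibroblast markers for the feeder cells 9 were not listed. None of the 5 that were listed reached 10 CPM, with a sum of 6.4 against 3.65 CPM. Keratins KRT8 and KRT18 were at the level of the other cells, while EPCAM had no UMI in the calprotectin-high cells and 16 in the S100A8-zero cells. The label therefore rests on S100A8, S100A9 and PI3 in keratin-expressing cells without the defining myeloid markers, as far as these were listed. Doublets were not called; without the 5% of cells with the most UMIs, 26 genes were at least 2-fold higher and 16 lower, including all 22 higher and 14 of the 15 lower genes of the full set.

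The 179 H460 cells that met the same rule are a set that did not enter the choice of the mdR-H460 cells and has its own S100A8-zero cells, 3834 in number. The contrast was steeper there: S100A9 was at 6051 against 62.8 CPM, 96.4-fold (93.1 to 99.8), with more S100A9 in the S100A8-high cells and less in the S100A8-zero cells than in mdR-H460. Of 6430 genes measured in H460, 55 (0.855%) passed 2-fold upward and 67 (1.04%) downward, and 116 (1.8%) and 320 (4.98%) passed 1.5-fold. The lists shared 8 higher genes, S100A9, PI3, IL1B, PTGS2, SPINK6, SQRDL, MSMP and NTS, which were 36.4% of the mdR-H460 genes and 14.5% of the H460 genes. Among them, MSMP and NTS rested on few cells in mdR-H460, as given above. Without the cell with the most UMIs of each gene in each set, 6 genes were shared. Of the 22 genes, 15 were measured in H460 and 12 of these had a ratio above 1, 80% against 41.5% of all genes measured there. PTGS2, SPINK6, MSMP, NTS and S100A3 were under 10 CPM in the S100A8-zero cells of H460. They could be measured there only with a ratio above 1, so the 80% is partly set by the minimum. Shared lower genes were KRT19 and ANXA3, 13.3% of the mdR-H460 and 2.99% of the H460 list. Of the 15 lower genes 12 were measured in H460 and 8 had a ratio under 1, 66.7% against 58.5% of all genes. The minimum acts here too, since AJUBA reached 10 CPM in H460 only in the S100A8-zero cells.

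**Figure D4:**
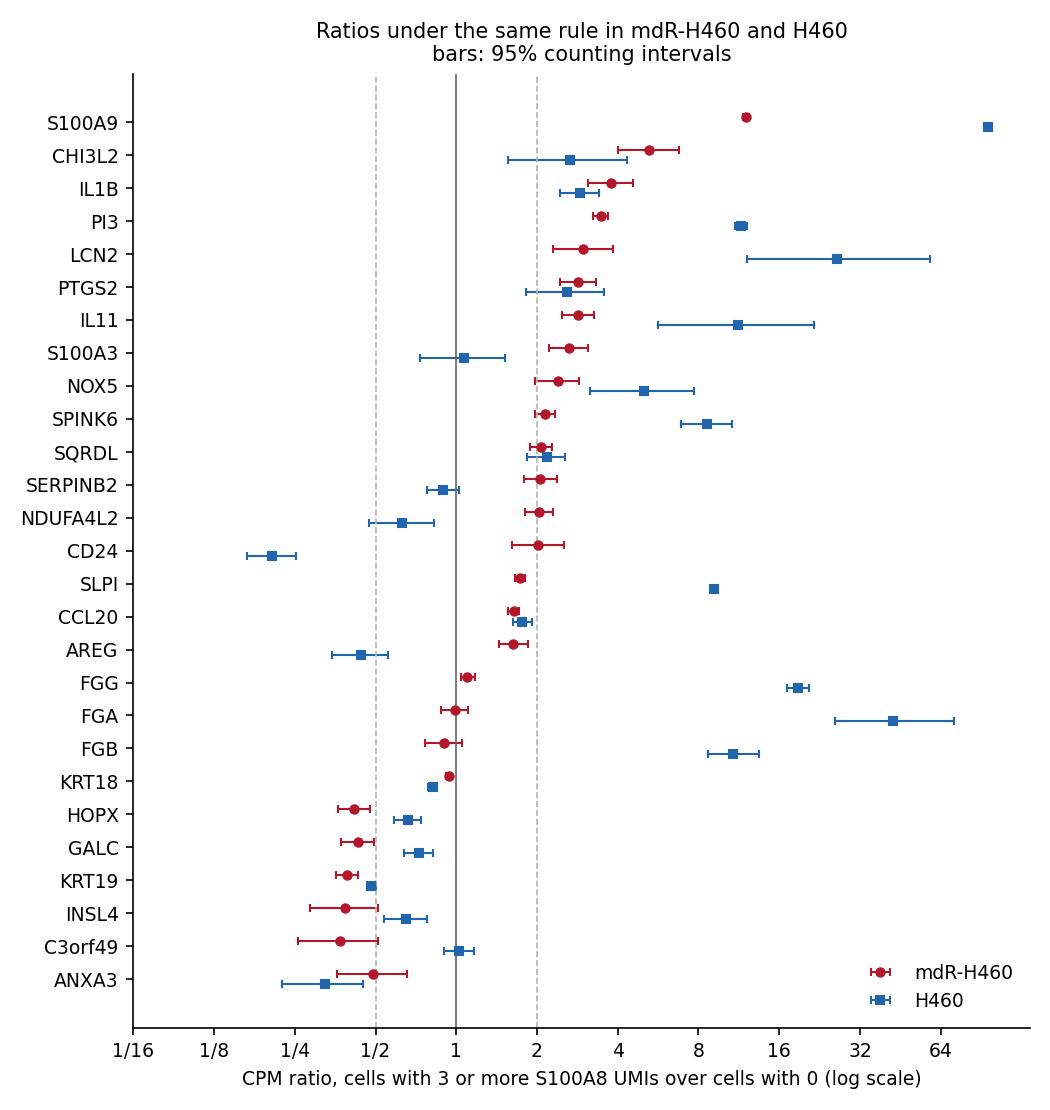
CPM ratio of cells with at least 3 S100A8 UMIs over cells with 0, for 27 genes in mdR-H460 (circles) and H460 (squares), on a log scale with 95% counting intervals; dashed lines mark 2-fold. S100A9, PI3, LCN2, SLPI and the fibrinogen genes lie farther right in H460, and CD24, NDUFA4L2 and AREG lie on opposite sides of 1 in the 2 cultures. LCN2, CHI3L2, IL11 and NOX5 were under the 10 CPM minimum in H460.

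The size of the ratios differed by gene. PI3 was 3.45-fold in mdR-H460 and 11.5-fold (10.9 to 12.1) in H460, and SLPI 1.73-fold and 9.14-fold (8.81 to 9.49). LCN2 was 2.98-fold and 26.2-fold (12.1 to 58.2). In the H460 cells of the same rule, LCN2 was at 5.68 CPM, under the 10 CPM minimum. Its 18 UMIs lay in 2.79% of those cells, so the H460 ratio describes a few cells. For PTGS2 the ratios were 2.85 and 2.58 (1.82 to 3.57), for SQRDL 2.07 and 2.17 (1.84 to 2.54), for CCL20 1.64 and 1.76 (1.63 to 1.91), and the intervals overlapped in each case. The fibrinogen genes stood apart: FGA, FGG and FGB had ratios of 0.988, 1.1 and 0.899 in mdR-H460 and of 42.6 (25.9 to 72.0), 18.8 (17.1 to 20.6) and 10.8 (8.69 to 13.4) in H460. In H460 their S100A8-zero cells had 0.4, 15.1 and 4.04 CPM, against 57.1, 232 and 34.0 CPM in the S100A8-zero cells of mdR-H460, so the S100A8-zero cells of mdR-H460 already had about the level of the calprotectin-high cells. CD24 had the opposite direction, 2.02-fold higher in mdR-H460 and 4.85-fold lower in H460 (29 against 141 CPM), and AREG, an EGFR ligand, had ratios of 1.63 and 0.44. S100A3 and SERPINB2, higher in mdR-H460, were at 1.07 (0.73 to 1.52) and 0.894 (0.776 to 1.02) in H460. With 1 library of each culture, these differences compare libraries and were not tested.

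**Figure D5:**
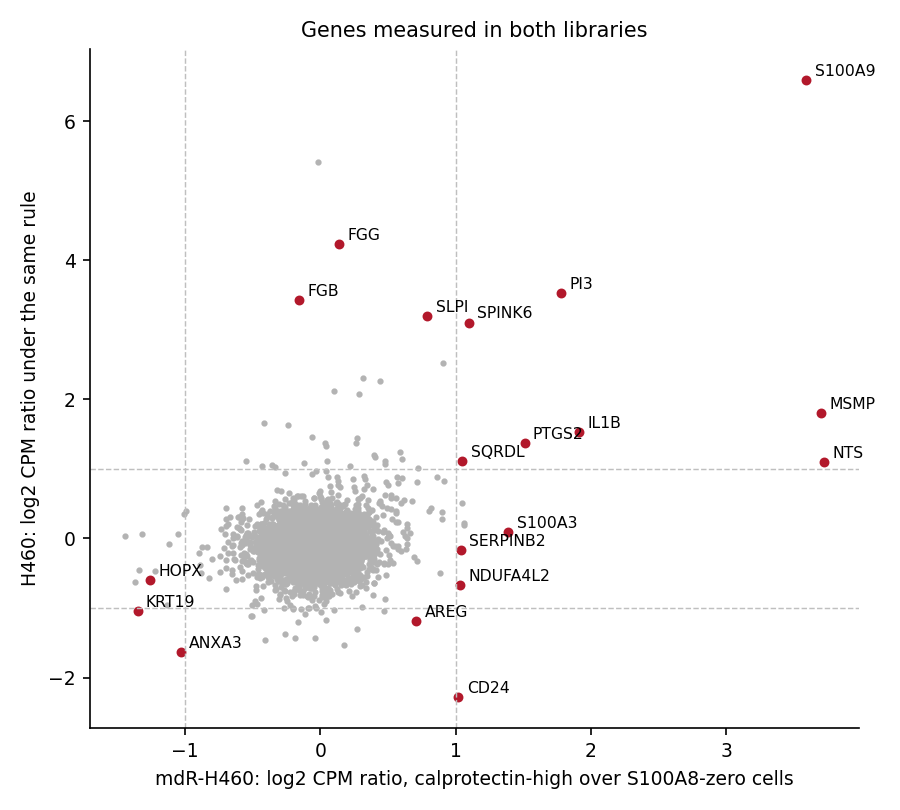
Log2 CPM ratio of each gene in mdR-H460 (horizontal axis) and in H460 (vertical axis) under the same rule, for the 5663 genes with a ratio in both; dashed lines mark 2-fold and labelled genes are those named in the text. Most genes sit in the middle, S100A9 and PI3 are high on both axes, FGG and FGB on the H460 axis alone, and CD24 is at 1.02 and -2.28.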

How the data were processed

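Single-cell RNA sequencing of H460, mdR-H460 and ldR-H460 gave 1 library each. The deposited tables give, for each symbol and cell, the UMI count as a whole number without normalization, for cells the authors had kept after quality filtering, per the series design text. The submitters' processing notes name Cell Ranger 3.0.2, Seurat 3.0 and GRCh38 but not what each did, and no annotation release. An unlisted symbol was taken as 0. Positions are those of the symbol in GENCODE on GRCh38, which may not be the submitters' annotation.

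UMIs were summed over the cells of a set and divided by the total of the set to give CPM, which weights deep cells more. Ratios have exact binomial-based 95% intervals, sums exact Poisson and shares Clopper-Pearson intervals, for counting error only, and PCR and droplet effects are not covered. A gene was measured at 10 CPM or more in the higher set. Named genes are the 4 markers, the 15 highest and 15 lowest ratios among genes past 2-fold, ordered by the end of the interval nearest to 1, up to 4 measured members of each of 33 gene lists, and all measured S100, IL-1 family and chemokine genes. Other genes (fibrinogen chains, SLPI, AREG, keratins, cell type markers, housekeeping genes and the remaining genes past 2-fold) were added after values were seen. A gene that the rule names is not reported here. The cells, lists and rule were chosen with earlier results of these data known. Phases and clusters came from scanpy 1.11.5 (cells thinned to 5000 UMIs for phases; 2000 variable genes, 30 components, 15 neighbours, Leiden resolution 0.5 without S100A8 and S100A9 for clusters), with Python 3.11.15 and scipy 1.17.1. Scaling alternatives used edgeR 4.0.16 and DESeq2 1.42.0. The intervals were run on simulated counts of the mdR-H460 comparison, where they held the true ratio for 95.3% of 5553 unchanged genes. Of 50 genes each, they held it for 94% at 2.5-fold, 96% at 4-fold, 92% at 0.4-fold and 100% at 0.25-fold. The simulated sums were independent Poisson draws, the counting error that the intervals assume, so coverage near 95% was built in. UMIs concentrated in few cells were not simulated, so the check covers the calculation only. Because there is 1 library per culture, no p-value was computed.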

Additional observations from a re-analysis of the deposited data

Results flagged for a closer look

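CD24 had a log2 ratio of 1.02 between calprotectin-high and S100A8-zero cells in mdR-H460 and of -2.28 under the same rule in H460, the opposite direction in the other culture. NDUFA4L2, a mitochondrial protein induced in hypoxia, had 1.03 in mdR-H460 and -0.67 in H460. Both stood out because the direction differed between the cultures. The difference between cultures was not tested, since each has 1 library, and reads of CD24 can be split with near-identical copies.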

How the results depend on the processing

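The main counts of 22 genes at least 2-fold higher and 15 lower kept within 1.5 times with TMM and DESeq2 factors, cells over 5000 UMIs, all other cells as comparison, and without the deepest 5% of cells or the cells with 3 or more HSPA6 UMIs. Without mitochondrially encoded and ribosomal protein genes the lower count was 25, with equal weight per cell 29, and with depth weighting 8. Higher and lower counts were 53 and 61 in thinned cells (15 and 11 of the main genes), 54 and 129 in G1 cells, 54 and 47 when cells were chosen on a random part of their UMIs and measured on the rest (21 and 11 of the main genes), 4 and 3 at an S100A8 threshold of 1, 42 and 36 at 10, 233 and 231 at 1 CPM, and 5 and 3 at 50 CPM. The lower share of these genes was 40.5% in the main setting, 53.7% with equal weight, 20.5% with depth weighting and 70.5% in G1 cells. The 8 genes shared with H460 became 2 at an S100A8 threshold of 1, 30 at 1 CPM and 3 at 50 CPM. They became 6 in thinned cells, in G1 cells and without the cell with the most UMIs of each gene. Leaving out the cell with the most UMIs of each gene, chosen after seeing the data, gave 16 higher and 20 lower. The share of calprotectin-high cells, 7.03%, was 19.7% at a threshold of 1, 2.58% at 10, 3.76% in thinned cells and 6.27% of all deposited cells. MSMP turned to -1.60 in G1 cells, the only named gene past 2-fold to reverse. The causes were not tested. The thinned and G1 settings and the one measured on a part of the UMIs rest on fewer UMIs per gene, and a lower minimum admits genes with fewer. CD24 fell to 0.03 (log2) when choice and measurement used separate UMIs. No paired analysis was possible because each culture has 1 library and the labels give no replicate numbers.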
